A study of Mus musculus with 15 samples.

Results

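The comparison described here set mouse prostate cancer cells carrying the Twist box mutant of Twist1, F191G, against the same cells carrying wild-type Twist1 (WT). The arrays were taken by their labels, F191G A, B and C and WT A, B and C, which makes 6 of the 15 arrays of the study. All cells were Myc-CaP, a line that began as a prostate tumour in a Myc-transgenic mouse, and all were transfected, selected and grown to confluence before their RNA was taken. F191G puts a glycine in place of the phenylalanine that its name gives. The other 9 arrays held cells with an empty vector (VEC) and with the Twist1 forms AQA and DQD, which the labels do not describe further. They entered the model so that all groups share an estimate of the spread, and VEC is shown beside the results. The labels give neither the promoter behind Twist1 nor whether the selected cells were pools or single clones. They also do not say whether replicates A to C were separate cultures, and the p-values then reflect only how these arrays vary, possibly for technical reasons.

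Twist1 belongs to the basic helix-loop-helix family of DNA-binding proteins. It pairs with E proteins such as Tcf3, Tcf4 and Tcf12 and binds E-boxes, short DNA motifs written CANNTG. In development it acts in mesoderm and neural crest, and in carcinoma cells it is known for driving epithelial-mesenchymal transition. The Twist box is a conserved stretch at the end of the protein, away from the helix-loop-helix, that takes part in activating transcription and in contacts with partner proteins.

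Values are deposited log2 levels on Affymetrix Mouse Gene 1.0 ST arrays, and 19297 genes were measured. Errors are SD of 3 arrays for levels and the standard error (SE) of the model for differences, and "adjusted p" is the limma p-value after Benjamini-Hochberg adjustment over all genes. A gene is called when that value is under 0.05. The Twist1 probe set read 6.64, 6.85 and 6.76 in F191G, 6.77, 6.85 and 6.75 in WT and 6.45, 6.71 and 6.13 in VEC. The F191G and WT arrays overlapped and differed by -0.03 ± 0.15 (SE, adjusted p = 0.914). Where this probe set lies on the transcript, and whether the introduced Twist1 carries that stretch, is unknown here. The design text also names a normalization to Twist1 expression without its form. These values therefore do not settle how alike the Twist1 levels of the groups were.

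Among the 6 arrays, WT replicate A stood apart. Its lowest correlation with another array was 0.969 and its mean correlation with the F191G arrays 0.979, against 0.996 for WT replicate B and 0.994 for WT replicate C. The labels place replicates A and B of WT and replicate A of F191G in array batch A, and the other 3 in batch B. In the deposited values the batch term, fitted beside group, was at most 5e-09 in all 23811 probe sets, so the values already carry an adjustment for batch. Levels of single arrays in different batches therefore depend on that step, whose method is unknown here.

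Between F191G and WT, 1375 genes were called, which is 7.13% of those measured. They comprised 613 genes higher in F191G (3.18%) and 762 lower (3.95%). In every called gene the 3 F191G arrays lay on one side of the 3 WT arrays. Over all genes, the F191G arrays all lay above the WT arrays in 15.0% and all below in 19.4%. The falls were larger than the rises, with 76 called genes at least 2-fold lower and 19 at least 2-fold higher. Genes of growth restraint, of lysosomes and of stress responses were among those lower in F191G, and genes of DNA replication, DNA repair, kinetochores and ribosome assembly among those higher. Of 46 interferon-response genes 1 was called, of 40 epithelial-mesenchymal transition genes 2 and of 43 Hox genes and cofactors none. On RNA from whole cultures, fewer cells of a kind and less RNA per cell cannot be told apart.

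**Figure D1:**
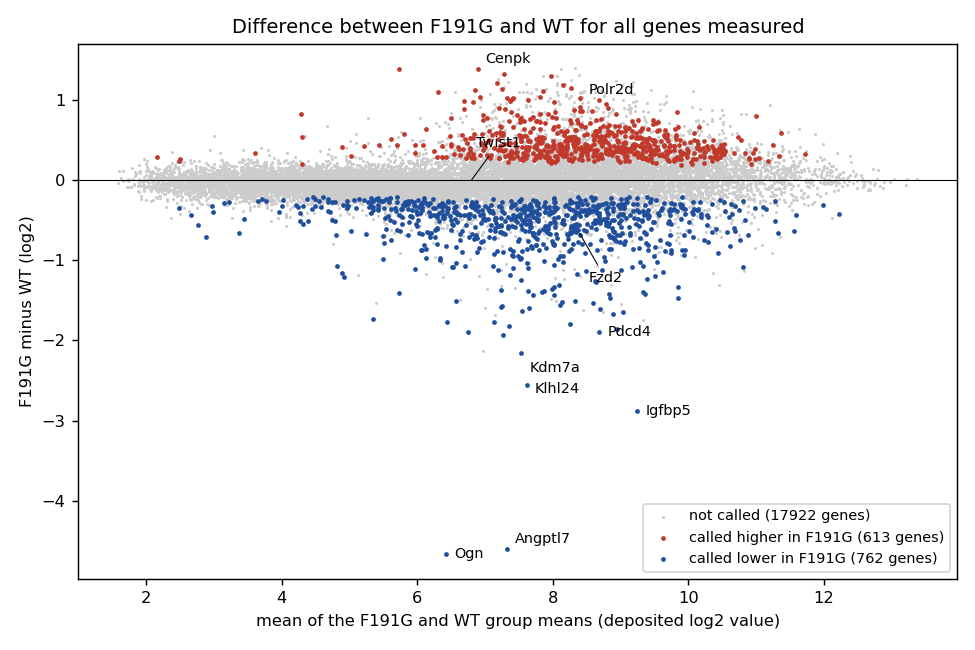
Difference between the F191G and WT group means (vertical axis, log2) against the average of both means (horizontal axis, deposited log2 value) for all 19297 genes, each a point; 613 called genes are higher in F191G and 762 lower. Ogn and Angptl7 lie far below the other genes, and Twist1 lies at -0.03.

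The calls rested on few arrays. Without F191G replicate A no gene was called, with 2791 genes at an unadjusted p under 0.05. No call reported here therefore holds without that array. It is the only F191G array in batch A, and without it the median SE was 0.103, against 0.087 in the main fit. Leaving out WT replicate A left 150 called genes, F191G replicate B 226 and F191G replicate C 106. Without WT replicate B the count was 2952, and without WT replicate C 1759. Arrays of the other groups moved it as well, to 821 without VEC replicate C, 477 without AQA replicate A, 557 without AQA replicate C, 366 without DQD replicate A, 770 without DQD replicate B and 486 without DQD replicate C. Of the 1375 calls, 552 had an adjusted p over 0.04, close to the threshold. With each array centred on its median, 71.3% of the called genes were higher in F191G, against 44.6% with the deposited scaling. In batch A alone no gene was called, with 3641 at an unadjusted p under 0.05, and in batch B alone 14 were called, 3 higher and 11 lower.

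The strongest fall was in Ogn, which encodes osteoglycin, a small leucine-rich proteoglycan of the matrix. Ogn read 4.0, 4.14 and 4.13 in F191G, 10.62, 6.37 and 9.30 in WT and 4.23, 5.37 and 3.99 in VEC. All F191G arrays were low and alike, while the WT arrays were high and far apart, with replicate B nearest to VEC. The difference was -4.67 ± 0.93 (SE, adjusted p = 0.0294), or 25.5-fold lower, and -3.79 without WT replicate A (adjusted p = 0.0517, no longer called). Angptl7, a secreted angiopoietin-like factor, read 4.72, 5.30 and 5.06 in F191G, 11.20, 7.35 and 10.31 in WT and 5.16, 5.89 and 4.55 in VEC. Its WT arrays took the same order as those of Ogn, and it was 24.2-fold lower in F191G (-4.60 ± 0.86, adjusted p = 0.0244). Igfbp5, which binds insulin-like growth factors outside the cell, read 7.32, 8.19 and 7.92 in F191G, 12.02, 9.27 and 10.77 in WT and 7.83, 9.09 and 7.79 in VEC. It was 7.37-fold lower (-2.88 ± 0.61, adjusted p = 0.0313).

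The 250 bases before the transcription start of these 3 genes are shown because they are the deepest falls and because Twist1 binds E-boxes. The sequences are from RefSeq on build GRCm38.p6, written 5′ to 3′ on the gene's strand, with every CANNTG in capitals. The window of Ogn is chr13:49607765-49608014 (+), that of Angptl7 chr4:148500463-148500712 (-) and that of Igfbp5 chr1:72874866-72875115 (-).
Ogn: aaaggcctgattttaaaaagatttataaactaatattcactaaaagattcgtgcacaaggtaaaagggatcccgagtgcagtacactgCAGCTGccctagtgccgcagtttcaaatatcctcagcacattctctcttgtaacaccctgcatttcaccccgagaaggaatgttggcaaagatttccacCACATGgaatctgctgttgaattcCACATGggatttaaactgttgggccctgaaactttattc
Angptl7: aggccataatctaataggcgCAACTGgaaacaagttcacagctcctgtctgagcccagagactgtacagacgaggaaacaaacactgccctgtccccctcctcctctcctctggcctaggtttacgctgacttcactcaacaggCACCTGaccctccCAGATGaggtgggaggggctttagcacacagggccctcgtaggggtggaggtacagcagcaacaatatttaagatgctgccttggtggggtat
Igfbp5: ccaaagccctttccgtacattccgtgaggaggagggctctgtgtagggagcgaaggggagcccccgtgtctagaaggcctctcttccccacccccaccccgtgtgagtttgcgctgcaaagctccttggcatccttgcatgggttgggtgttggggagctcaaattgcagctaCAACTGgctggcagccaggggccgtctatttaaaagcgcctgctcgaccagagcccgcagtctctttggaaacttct
Ogn and Angptl7 held 3 such matches each and Igfbp5 1. Among the other leading falls with a listed window, Pdcd4 held 2 and Glrb 1, while Kdm7a, Btg2, Ddit4 and Tcp11l2 held none. The motif is common, and its letters read the same on both strands. Of the 15161 measured genes with a listed window, 61.5% held at least 1 CANNTG, as did 59.2% of the 622 genes called lower with a window and 51.5% of the 515 called higher. The narrower form CATNTG was in 28.6% of all windows, 24.8% of those of genes called lower and 20.6% of those called higher. A match is a run of letters, and binding was not measured.

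Ogn lies inside the span of another called gene in the RefSeq annotation. Cenpp, which encodes a kinetochore protein, is annotated on the strand opposite to Ogn, and its span also holds Omd, Aspn and Ecm2. Cenpp was higher in F191G (1.10 ± 0.24, adjusted p = 0.0313), and so was its neighbour Ippk, which makes inositol hexakisphosphate (0.48, adjusted p = 0.0196). Omd, which encodes the proteoglycan osteomodulin, was lower, at 4.31 ± 0.18 in F191G and 5.47 ± 0.74 in WT (-1.15 ± 0.31, adjusted p = 0.0462). The proteoglycan genes Ecm2 and Aspn in the same span read -0.21 (adjusted p = 0.204) and -0.13 (adjusted p = 0.510), and both lay well below the array medians. The strand that each probe set reads is not in the tables used here. Ecm2, Aspn and Ippk were named after their values were seen.

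Next came genes placed here in the list of FoxO targets and growth restraint or in that of p53 targets. Klhl24, an adaptor of a cullin ubiquitin ligase, read 5.93, 6.52 and 6.58 in F191G and 9.46, 8.14 and 9.09 in WT, which is 5.87-fold lower (-2.55 ± 0.35, adjusted p = 0.0173). Pdcd4, an inhibitor of translation initiation through eIF4A, read 7.51, 7.99 and 7.71 in F191G, 10.03, 9.26 and 9.60 in WT and 7.18, 7.77 and 6.80 in VEC (-1.89 ± 0.24, adjusted p = 0.0173). Both genes separated the groups with a gap larger than the range within either group. Kdm7a, a histone demethylase gene with 2 probe sets, was lower by both, at -2.16 and -1.60. Trp53inp1, a stress-induced gene of the p53 pathway, fell by 1.94 ± 0.31, and Btg2, an antiproliferative p53 target, fell by 1.85 ± 0.44. Ddit4, which restrains mTORC1 under stress, read 6.79, 7.77 and 7.53 in F191G, 9.63, 8.84 and 9.01 in WT and 8.78, 7.89 and 7.59 in VEC, a fall of 1.80 ± 0.31. Its F191G arrays lay below WT and overlapped VEC.

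The remaining deep falls had other roles. Hp encodes haptoglobin, which binds free haemoglobin, and fell by 1.90 ± 0.46. Arg1 encodes arginase, an enzyme of the urea cycle, and fell by 1.82 ± 0.38. Prss8 encodes prostasin, a membrane serine protease of epithelia, and Glrb a subunit of the glycine receptor, and these fell by 1.77 ± 0.39 and 1.74 ± 0.44. Tcp11l2 fell by 1.77 ± 0.29. Over the 14 genes with the largest falls the adjusted p ran from 0.0173 to 0.0398. In all 14, WT replicate A was the highest WT array and F191G replicate A the lowest F191G array, and WT replicate B was the lowest WT array. Their differences ran from -4.67 to -1.74, from -4.60 to -1.29 without F191G replicate A, and from -3.85 to -1.21 without WT replicate A. In that fit 7 of the 14 were still called, without F191G replicate B 7, without F191G replicate C 6 and without WT replicate C 11. Leaving out 1 array of the other groups left 10 to 14.

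In each of these genes the F191G group mean lay nearer to the VEC mean than to the WT mean. WT minus VEC ran from 1.001 (Arg1, adjusted p = 0.0931) to 4.42 (Angptl7). F191G minus VEC ran from -0.82 (Arg1) to 0.49 (Pdcd4), with no adjusted p below 0.399, which does not show equal levels. In Arg1 all F191G arrays (6.08, 6.63 and 6.63) lay below all VEC arrays (8.07, 6.85 and 6.87). The comparisons share arrays, F191G minus WT and WT minus VEC the WT arrays, so their values are not independent.

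**Figure D2:**
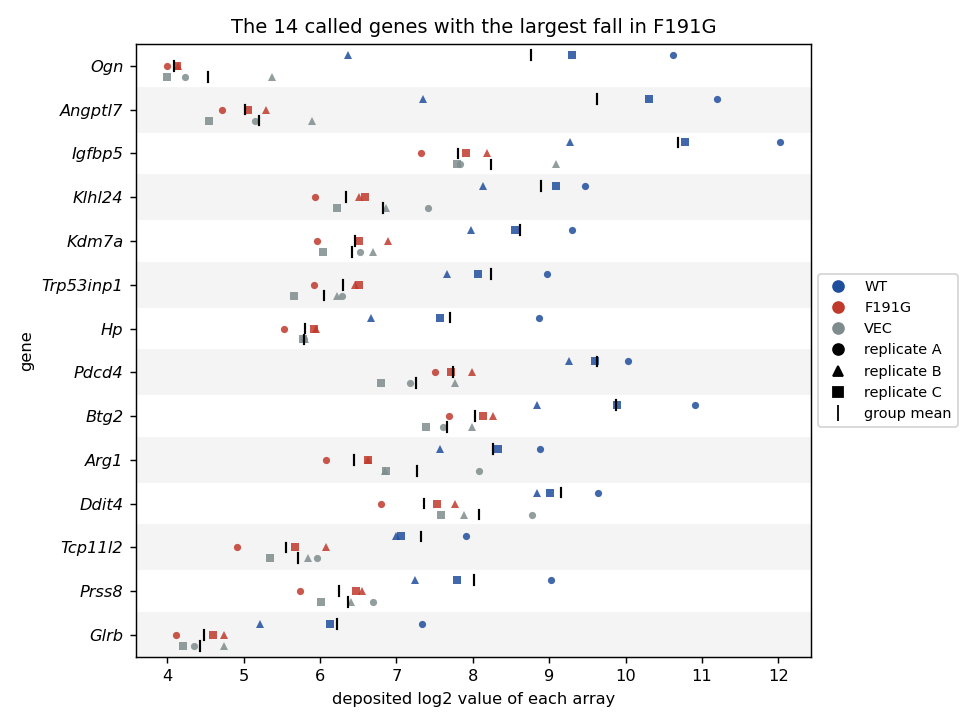
Deposited log2 value (horizontal axis) of each array for the 14 called genes with the largest fall (vertical axis), with WT in blue, F191G in red and VEC in grey; the point shape gives the replicate and the bar the group mean. F191G lies below all WT arrays in each gene, and its mean is nearer to that of VEC than to that of WT. Ogn and Angptl7 show the widest spread within WT.

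Other genes of the growth-restraint list were lower as well. The list of FoxO targets and growth-restraint genes had 30 measured members, of which 15 (50%) were called lower and none higher, against 3.95% of all genes called lower. The gene lists were chosen with earlier results of these data known, so this share describes the list and is not a test of it. FoxO factors are transcription factors held out of the nucleus by insulin and growth factor signalling. The FoxO-type motif GTAAACA was in 2.65% of all promoter windows and 2.57% of those of genes called lower. In this list it was in 2 of 25 windows (8.0%), and FoxO binding was not measured. The list's median difference was -0.61, beside -0.03 over all genes, and 27 of the 30 values were negative. The called members included, beside Klhl24, Pdcd4, Kdm7a and Ddit4, the sestrin gene Sesn3 (-0.98), the autophagosome genes Map1lc3b (-0.87) and Gabarapl1 (-0.87), the mRNA decay factor Zfp36l1 (-1.13) and the ubiquitin ligase gene Fbxo32 (-0.45). Foxo1 (-0.56) and Foxo4 (-0.50) themselves were lower, as were Ypel3 (-1.44), Ypel5 (-1.10), Klf9 (-0.65) and Pik3ip1 (-0.52), an inhibitor of phosphoinositide 3-kinase. Without WT replicate A, 9 members were called, namely Klhl24, Pdcd4, Kdm7a, Sesn3, Ddit4, Map1lc3b, Zfp36l1, Ypel3 and Ypel5, and the median was -0.47. Without F191G replicate B 10 were called, without F191G replicate C 6, and without 1 array of the other groups 10 to 15.

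The FoxO list mean on each array, relative to the VEC mean, was 1.04, 0.48 and 0.62 in WT replicates A, B and C. It was -0.28, 0.11 and -0.01 in F191G, 0.24, 0.35 and 0.25 in AQA and -0.17, 0.09 and -0.13 in DQD. The WT arrays thus lay above all 12 other arrays. Of 17 measured genes that hold cells out of the cycle, 4 (23.5%) were called lower, beside 3.95% of all genes, and none higher. The 4 were Btg2, the pocket protein gene Rbl2 (-0.81), Tob1 (-0.76) and Btg1 (-0.65). Of the 17 values 5 were positive, the highest 1.01, and the median was -0.20. Without WT replicate A no member was called, without F191G replicate B 1 and without F191G replicate C none. Leaving out WT replicate B gave 5 lower and 2 higher, and WT replicate C 3 lower and 2 higher. The Myc antagonists Mxd4 (-1.30 ± 0.25, adjusted p = 0.0272) and Mnt (-0.41 ± 0.11, adjusted p = 0.0494), which pair with Max in place of Myc, were also lower, and Mnt was not called without WT replicate A. Myc itself read 0.12 ± 0.15 (adjusted p = 0.664), and whether its probe set also reads the Myc transgene of the line is unknown here. Of 27 p53 targets, 3 (11.1%) were lower, namely Trp53inp1, Btg2 and Mdm2 (-0.43 ± 0.10, adjusted p = 0.0329), whose product degrades p53. Without WT replicate A 1 was called. Over the 27 the median was -0.07, beside -0.03 over all genes, and 10 values were positive, the highest 0.64.

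The largest rises were in genes of chromosome duplication and segregation. Cenpk, a kinetochore gene, read 8.05, 7.34 and 7.39 in F191G, 5.21, 6.87 and 6.53 in WT and 7.67, 7.03 and 7.5 in VEC. WT replicate A was far below all other arrays, and WT replicates B and C were closer to F191G. The difference was 1.39 ± 0.36 (adjusted p = 0.0420), or 2.62-fold, and 0.92 without WT replicate A. Ccne2, which encodes cyclin E2 of the entry into S phase, read 8.71, 8.26 and 8.27 in F191G, 6.64, 7.68 and 7.58 in WT and 8.40, 8.05 and 8.29 in VEC. Its difference was 1.11 ± 0.23 (adjusted p = 0.0313), and it stayed called without WT replicate A at 0.80.

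The other leading rises were of the same kinds. Dscc1, part of a clamp loader that serves sister chromatid cohesion, rose by 1.38 ± 0.35, and Atad5, which unloads the sliding clamp PCNA, by 1.32 ± 0.35. Ncapg2, a subunit of condensin II, rose by 1.30 ± 0.36, Pola1, the catalytic subunit of DNA polymerase alpha, by 1.19 ± 0.32, and Haus6, part of the augmin complex of the spindle, by 1.03 ± 0.28. Repair genes among them were Fancb of the Fanconi core complex (1.21), the nuclease Exo1 (1.15), the recombination gene Rad51ap1 (1.12), the end-joining polymerase Polq (1.04) and Mms22l of fork repair (1.03). The epithelial stress keratin Krt6a (1.14 ± 0.32) was the exception in kind, and its adjusted p of 0.04996 was the closest to the threshold among the 14. In all 14 leading rises WT replicate A was the lowest WT array and F191G replicate A the highest F191G array. Their differences ran from 1.03 to 1.39, and from 0.74 to 1.05 without F191G replicate A. Without WT replicate A they ran from 0.64 to 0.94, so that 9 of the 14 shrank by more than 1.5 times. In that fit 3 of the 14 were called, without F191G replicate B 1, without F191G replicate C none, without WT replicate B 13, and without 1 array of the other groups 2 to 10. WT minus VEC ran from -1.40 to -0.95 in these genes and F191G minus VEC from -0.21 to 0.26.

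**Figure D3:**
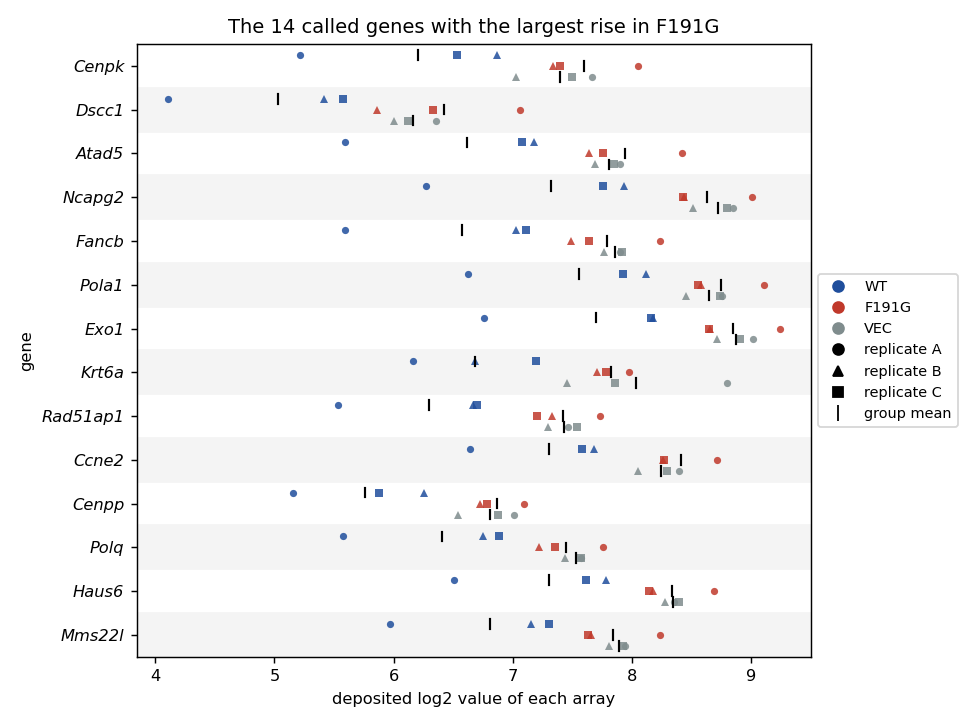
Deposited log2 value (horizontal axis) of each array for the 14 called genes with the largest rise (vertical axis), drawn as for the falls. F191G lies above all WT arrays and among the VEC arrays, and WT replicate A (circle) is the lowest WT array in all 14.

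The promoter windows of Ncapg2 and Pola1 are shown because E2F factors, which switch on S-phase genes, bind motifs of the kind TTTNNCGC. Among the 10 leading rises with a listed window, each searched in the first listed (Cenpk had 3), these windows held the only matches. They are from RefSeq on GRCm38.p6, 5′ to 3′ on the gene's strand, with matches on either strand in capitals. The window of Ncapg2 is chr12:116405186-116405435 (+) and that of Pola1 chrX:93632156-93632405 (-).
Ncapg2: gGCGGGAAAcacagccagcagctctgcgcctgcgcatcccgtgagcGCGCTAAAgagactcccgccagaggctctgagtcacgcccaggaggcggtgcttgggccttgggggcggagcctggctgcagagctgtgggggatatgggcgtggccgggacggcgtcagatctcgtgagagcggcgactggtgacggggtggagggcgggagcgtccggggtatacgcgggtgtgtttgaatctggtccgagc
Pola1: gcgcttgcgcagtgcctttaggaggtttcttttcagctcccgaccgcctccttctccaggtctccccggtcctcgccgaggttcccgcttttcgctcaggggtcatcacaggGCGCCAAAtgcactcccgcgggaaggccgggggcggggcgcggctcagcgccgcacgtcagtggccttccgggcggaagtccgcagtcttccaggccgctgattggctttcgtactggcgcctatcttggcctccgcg
The motif was in 5.63% of all windows, 5.95% of those of genes called lower and 9.51% of those of genes called higher. Within gene lists, it was in 9 of 40 windows of DNA replication genes (22.5%), 7 of 28 of Fanconi and recombination genes (25.0%) and 5 of 37 of mitosis genes (13.5%). Binding of E2F factors was not measured.

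Of 48 measured genes of DNA replication and S phase, 9 (18.8%) were called higher in F191G and none lower, against 3.18% of all genes called higher. All 48 estimates were positive, with a median of 0.83. The called genes were Ccne2, Pola1, the replication kinase Cdc7 (0.81), the histone mRNA binder Slbp (0.74), the histone chaperone subunit Chaf1a (0.88), the origin and licensing genes Orc6 (0.55), Cdc6 (0.79) and Cdt1 (0.85), and Rpa2 (0.71) of the single-strand binding complex. With WT replicate A left out, 1 was called and the median was 0.49. None was called without F191G replicate B or without F191G replicate C, 43 were when WT replicate B was left out and 41 when WT replicate C was, and 1 to 6 without 1 array of the other groups.

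Genes of the Fanconi pathway, recombination and checkpoints had 35 measured members, all with positive values and a median of 0.77. Of these, 13 (37.1%) were called higher, beside 3.18% of all genes. Nbn (0.54) and Mre11a (0.69) encode parts of the complex that senses double-strand breaks, and Atm (0.71) and Atr (0.49) the kinases that signal damage. Fancm (0.78) and Fanca (0.86) act with Fancb, Brca1 (0.97) and Rad54l (0.99) in recombination, Clspn (0.98) and H2ax (0.43) in checkpoint signalling, and Msh6 (0.85) and Exo1 in mismatch repair. The median was 0.47 without WT replicate A. Without WT replicate A, F191G replicate B or F191G replicate C, 1 member was called in each case, without WT replicate B 31, without WT replicate C 20, and without 1 array of the other groups 1 to 9. Mitosis genes had the larger median of 0.85 over 45 members, all positive, yet 2 (4.44%) were called, Cenpk and Ncapg2. Trip13, a checkpoint remodeller, read 1.32 (adjusted p = 0.0537) and the kinase Cdk1 0.82 (adjusted p = 0.0580). Leaving out WT replicate A gave a median of 0.45 and no called mitosis gene, as did either F191G replicate B or C for the calls. Leaving out WT replicate B gave 40 and WT replicate C 22.

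Of 36 nucleolar genes of ribosome biogenesis, 13 (36.1%) were called higher and none lower. All 36 values were positive, with a median of 0.41. These were Ebna1bp2 (0.62), the RNA polymerase I subunit gene Polr1e (0.52), Gnl3 (0.41), Wdr43 (0.40), Rrp12 (0.63), Nhp2 (0.56), the helicase genes Ddx21 (0.45) and Ddx10 (0.41), Tsr1 (0.43), Rrp1b (0.66), Nop58 (0.57), Bop1 (0.43) and Heatr1 (0.43). The median was 0.26 without WT replicate A. Leaving out WT replicate A or F191G replicate C left 1 called, without F191G replicate B 2, without WT replicate B 26, without WT replicate C 26 and without 1 array of the other groups 3 to 10. The list mean relative to VEC was -0.73, -0.28 and -0.25 in WT replicates A, B and C and 0.15, -0.09 and -0.10 in F191G. Of 34 genes of cholesterol and fatty acid synthesis, 3 (8.82%) were higher, beside 3.18% of all genes. They were Acaca (0.45), which makes malonyl-CoA, Sqle (0.61), a sterol pathway enzyme, and Elovl5 (0.36), a fatty acid elongase. Without WT replicate A 1 was called, and without WT replicate C 6.

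**Figure D4:**
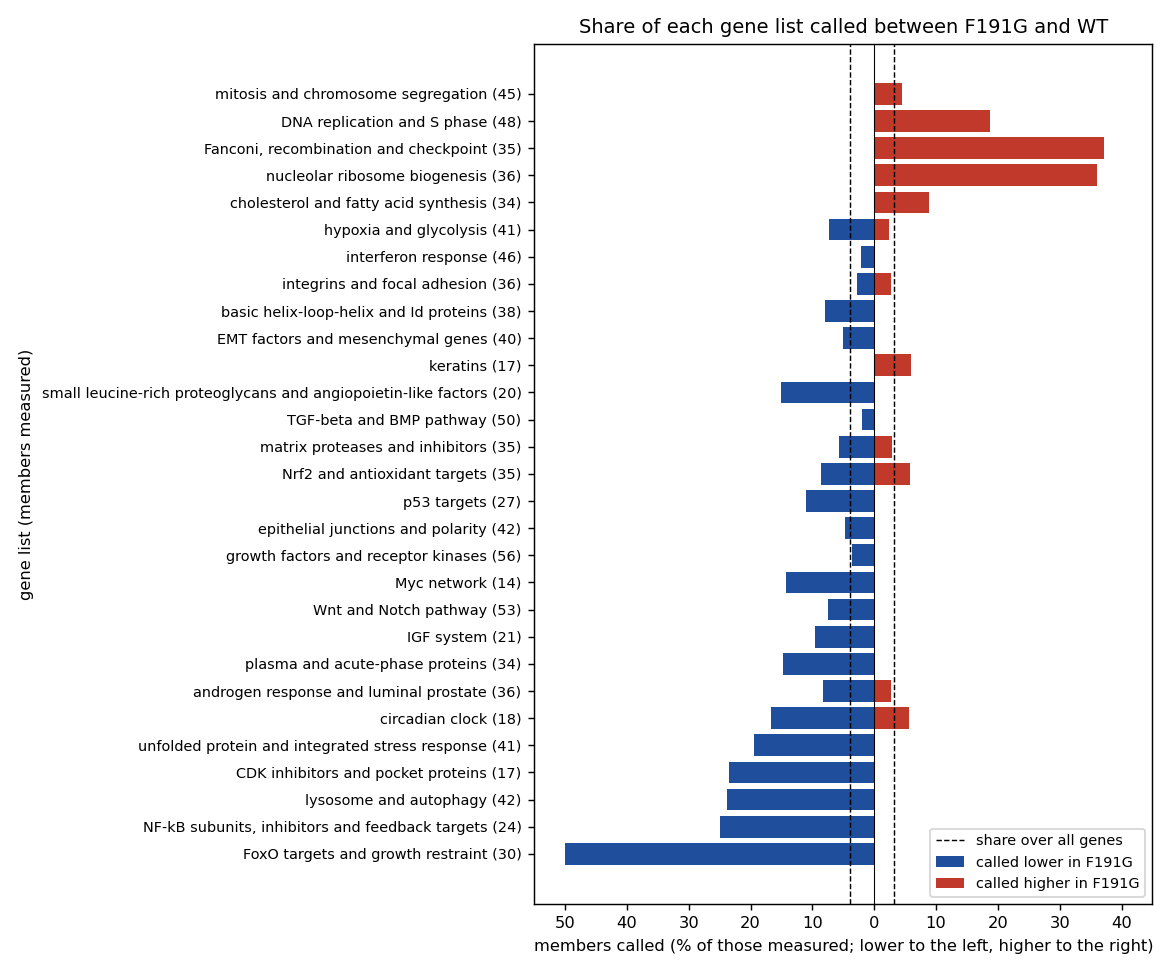
Share of the measured members of each gene list (vertical axis, members in parentheses) called higher (red, right) or lower (blue, left) in F191G (horizontal axis, %); lists without a called member are left out and dashed lines mark 3.18% and 3.95% of all genes. The 50% of the FoxO and growth-restraint list is the longest bar to the left, and the Fanconi list with 37.1% and ribosome biogenesis with 36.1% are the longest to the right. The lists were chosen with earlier results of these data known.

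Genes of protein folding stress and of lysosomes were lower in F191G. The unfolded protein and integrated stress response list had 41 measured members, 8 of them (19.5%) called lower and none higher. Over all genes 3.95% were called lower. The list's median was -0.19, beside -0.03 over all genes. The sensor genes Ern1 (-0.49) and Atf6 (-0.50), the effector Xbp1 (-0.75), the chaperone partner Dnajb9 (-1.09), the degradation factor Herpud1 (-0.94) and the stress transcription factor genes Atf3 (-1.02), Ddit3 (-0.53) and Nupr1 (-0.61) made up the 8. None of them was called without WT replicate A or without F191G replicate C, 2 were without F191G replicate B, 17 list members without WT replicate B, and 3 to 8 without 1 array of the other groups. The lysosome and autophagy list had 42 members, with a median of -0.27. Of its members, 10 (23.8%) were called lower, beside 3.95% of all genes. Autophagy genes among these 10 were Wipi1 (-0.71), Ulk1 (-0.59), Map1lc3b, Gabarapl1 and Sqstm1 (-0.66). Lysosomal genes among them were Ctsa (-0.60), Ctsl (-0.91), Naglu (-0.64), Lipa (-0.54) and the proton pump subunit gene Atp6v0d1 (-0.58). With WT replicate A left out, the median was -0.14 and 4 of the list were called, without F191G replicate B 3, without F191G replicate C none, without WT replicate B 19 and without 1 array of the other groups 6 to 10.

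Several genes of NF-kB, a family of transcription factors of inflammation, were lower. Over 24 subunit, inhibitor and feedback genes the median was -0.31, beside -0.03 over all genes, and 23 values were negative. Of the 24 genes, 6 (25.0%) were called lower, beside 3.95% of all genes. They were Map3k14 (-0.52), the kinase of the alternative pathway, the subunit gene Nfkb2 (-0.53), the inhibitor gene Nfkbie (-0.79), and Zc3h12a (-0.50), Tnip1 (-0.64) and Traf1 (-0.30). None of the list was called without WT replicate A or without F191G replicate C, 1 was without F191G replicate B, 4 lower and 1 higher were with WT replicate C left out, 12 lower with WT replicate B left out and 0 to 5 without 1 array of the other groups. Of 44 cytokine and chemokine genes none was called, while leaving out WT replicate B gave 1 higher and 4 lower and leaving out WT replicate C 2 higher and 1 lower. The neutrophil attractant gene Cxcl1 read 7.92 ± 0.62 in F191G and 9.57 ± 1.19 in WT (-1.65, adjusted p = 0.0575), and Cxcl5 read 0.29 (adjusted p = 0.159).

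Of 46 measured interferon-response genes, 1 (2.17%) was called, the transcription factor gene Irf1, which was lower. Over all genes 3.95% were called lower. The median difference of the 46 genes was 0.03. The median WT minus VEC was 0.997 and the median F191G minus VEC 1.11 over the same genes, and these values share the VEC arrays. Irf1 read 7.54, 8.40 and 8.22 in F191G, 10.73, 8.91 and 9.53 in WT and 9.99, 8.87 and 8.82 in VEC (-1.67 ± 0.46, adjusted p = 0.0483). Its F191G arrays lay below both WT and VEC, and among the 6 fits that left out 1 F191G or WT array it was called in 1, that without WT replicate B (-2.05). Ifit3, an antiviral effector gene, read 7.48, 8.44 and 8.19 in F191G, 9.76, 9.46 and 8.67 in WT and 4.40, 4.90 and 3.52 in VEC. Both Twist1 groups were far above VEC, and the difference between them was -1.25 ± 0.54 (adjusted p = 0.15). Ifit3b read -1.53 (adjusted p = 0.0688), Herc6 0.88 (adjusted p = 0.0757) and Trim30a -1.18 (adjusted p = 0.0829). The list mean relative to VEC was 0.89, 1.26 and 1.25 in F191G and 1.06, 1.34 and 1.12 in WT, so the groups overlapped. No antigen presentation gene of 14 was called, and Tapbp read -0.48 (adjusted p = 0.229) and H2-Q4 -0.33 (adjusted p = 0.0585).

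**Figure D5:**
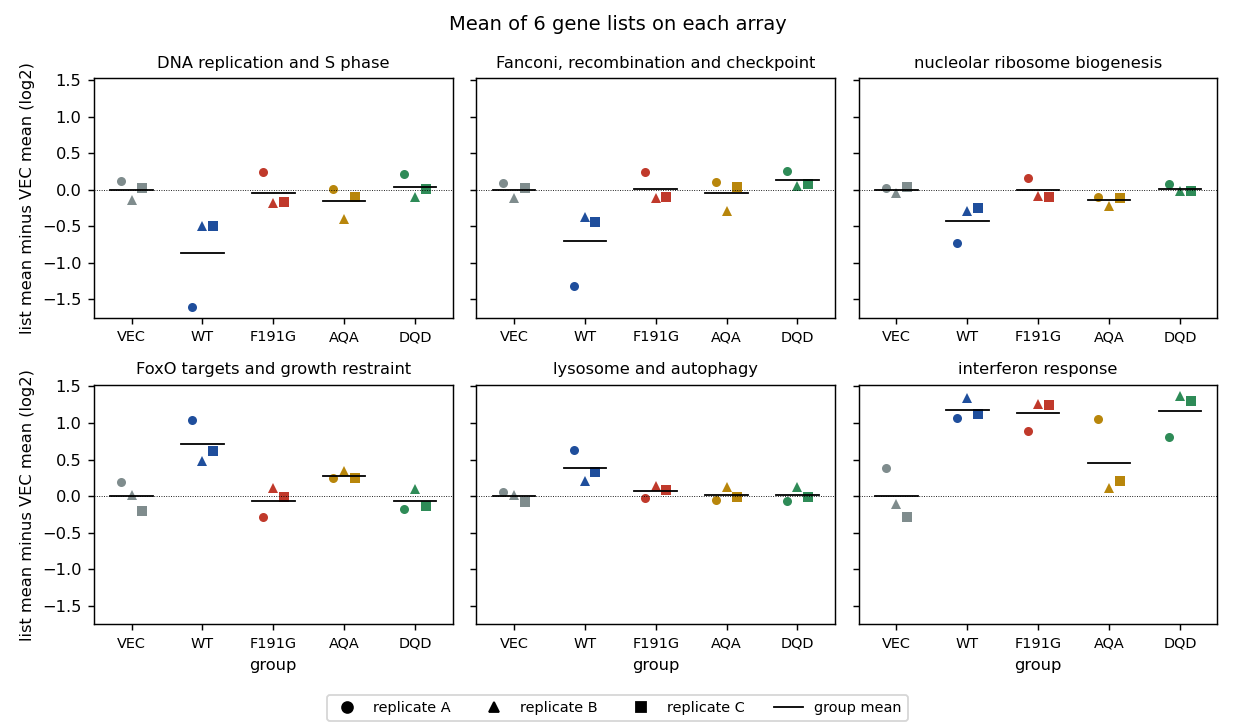
Mean of 6 gene lists on each array minus the VEC mean (vertical axis, log2) by group (horizontal axis); point shapes give replicates and bars group means. In the other 5 lists the WT arrays lie beyond all others, with WT replicate A farthest, and in the interferon list WT and F191G overlap above VEC.

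Of 40 genes of epithelial-mesenchymal transition, the process Twist1 is known for, 2 (5.0%) were called lower, beside 3.95% of all genes. They were Sox4 (-0.80 ± 0.15, adjusted p = 0.0272), a transcription factor gene, and Tcf4 (-0.46 ± 0.09, adjusted p = 0.0293), an E protein that can pair with Twist1. Sox4 kept its call without WT replicate A (-0.62). Vim, the mesenchymal intermediate filament gene, read 12.48 ± 0.14 in F191G and 12.43 ± 0.24 in WT, and the fibronectin gene Fn1 12.79 ± 0.04 and 12.78 ± 0.03. The cadherin genes Cdh1 (-0.18, adjusted p = 0.0874) and Cdh2 (-0.09, adjusted p = 0.453) were not called. The repressor genes Snai1 (-0.08), Snai2 (-0.08), Zeb1 (-0.23, adjusted p = 0.0595) and Zeb2 (-0.02) were not called either.

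Of 38 basic helix-loop-helix and Id genes, 3 (7.89%, beside 3.95% of all genes) were lower, Tcf4, Arnt (-0.34), a partner of the hypoxia and dioxin factors, and the myogenic factor gene Myf5 (-0.24), whose level of 4.25 in F191G was low. None of the 3 was called without WT replicate A. No Hox gene or cofactor of 43 was called, and Hoxa9 read 6.35 ± 0.10 in F191G and 6.21 ± 0.18 in WT (0.14, adjusted p = 0.414). The clock list of 18 had the output gene Dbp (-0.76), Per1 (-0.55) and Rora (-0.57) lower (16.7%) and Cry1 (0.25) higher (5.56%). None of these clock genes was called without WT replicate A. Over all genes 3.95% were lower and 3.18% higher. Of 35 Nrf2 and antioxidant targets, Gsr (0.46) and Taldo1 (0.41) were higher (5.71%) and Gstm1 (-0.87), Cbr1 (-0.34) and Aox1 (-0.32) lower (8.57%), again none without WT replicate A.

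Signalling lists were read against the same 3.18% higher and 3.95% lower of all genes. Fzd2, a Wnt receptor gene, had the smallest adjusted p of all genes, 0.0043. It lay at 8.06 ± 0.05 in F191G and 8.69 ± 0.07 in WT (-0.63 ± 0.06), and the difference was -0.59 without WT replicate A. Of 53 Wnt and Notch genes 4 (7.55%) were lower, Fzd2, Fzd7 (-0.39), the co-receptor Lrp6 (-0.31) and the Notch coactivator Maml2 (-0.66). In the insulin-like growth factor system of 21 genes, Igfbp5 and the receptor substrate Irs1 (-0.61) were lower (9.52%). Tgfbr3 (-0.51), a co-receptor, was the called gene (2%, lower) among 50 of the TGF-beta and BMP pathway. Tgfb2 read 8.21 ± 0.24 in F191G and 9.52 ± 0.95 in WT (-1.30, adjusted p = 0.0577). Of 56 growth factor and receptor kinase genes, the collagen receptor gene Ddr2 (-0.32) and Fgfr3 (-0.85) were lower (3.57%). Without WT replicate A, Fzd2 and Irs1 were the members of these 4 lists still called. In the hypoxia and glycolysis list of 41, Higd1a (0.56), a mitochondrial gene, was higher (2.44%) and Ddit4, Arnt and Pfkm (-0.47) were lower (7.32%).

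None of 46 collagens, laminins and matrix proteins was called, and Fbln2, which encodes fibulin 2, read -1.22 (adjusted p = 0.0544). Among 35 matrix proteases and inhibitors, Mmp11 (-0.61) and Mmp7 (-0.34) were lower (5.71%) and Adamts1 (0.39) higher (2.86%), with Mmp11 alone still called without WT replicate A. The integrin subunit gene Itgb3 (0.83) was higher (2.78%) and the Pyk2 kinase gene Ptk2b (-0.47) lower (2.78%) among 36 integrin and adhesion genes. The junction list of 42 had Prss8 and the plakoglobin gene Jup (-0.95) lower (4.76%). These shares stand beside 3.18% higher and 3.95% lower of all genes. Of 34 plasma and acute-phase proteins, Hp, Saa2 (-0.51), Apod (-0.68), Itih2 (-0.33) and Fgg (-1.07) were lower (14.7%, beside 3.95% of all genes). None of the junction, integrin or plasma protein calls held without WT replicate A.

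Genes of the prostate were measured to place the cells. Among luminal markers, Foxa1 (11.11 in F191G and 11.31 in WT), Cd24a (10.65 and 10.41), Krt8 (8.08 and 8.27) and Hoxb13 (7.35 and 7.48) lay above the array medians. Krt18 (5.67 and 5.80) lay below those medians, which ran from 6.31 to 6.42, and Pbsn (2.11 and 2.18), a secreted protein of the mature gland, was among the lowest values. Of 8 basal markers 6 lay below the lowest array median. None of the luminal or basal markers was called. The luminal list mean was 7.48 to 7.51 on the F191G arrays and 7.55 to 7.59 on the WT arrays, without overlap, and the basal list mean 5.71 to 5.85 and 5.76 to 5.90. The median difference of the luminal list was -0.13, and -0.06 with each array centred on its median. In the androgen-response list of 36, Steap1 (0.76) was higher (2.78%) and Slc45a3 (-0.51), Mme (-1.48) and Ndrg2 (-0.84) were lower (8.33%). Over all genes 3.18% were higher and 3.95% lower. Steap1 was still called without WT replicate A. Folh1, the gene of prostate-specific membrane antigen, read 9.64 ± 0.11 in F191G and 9.65 ± 0.08 in WT (adjusted p = 0.978), beside 1.44 above VEC in WT and 1.43 in F191G.

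Most markers of other cell types lay below the array medians. Of 21 haematopoietic markers 19 lay below the lowest array median, as did 11 of 12 endothelial, 11 of 15 fibroblast and smooth muscle and 14 of 17 neural ones. By definition, as many probe sets lie below an array's median as above it. Markers above the medians included Ncam1 (9.82 in F191G and 9.76 in WT), Npy (7.62 and 8.23), Pdgfra (7.38 and 7.55), Col1a1 (6.91 and 7.03) and Cd68 (6.61 and 7.10). The mean of the fibroblast and smooth muscle list was 5.40 to 5.46 on the F191G arrays and 5.47 to 5.55 on the WT arrays, without overlap. The median difference of this list was -0.08, and -0.01 with each array centred on its median. Of all genes, 19.4% had all F191G arrays below the WT arrays. The haematopoietic list lay at 5.14 to 5.27 and 5.23 to 5.44, the endothelial list at 5.46 to 5.52 and 5.51 to 5.57, and the neural list at 5.68 to 5.77 and 5.76 to 5.81, each overlapping. The part of these cell types in the results was not tested. Of all these markers the neuropeptide gene Npy (-0.61 ± 0.12, adjusted p = 0.0272) was called.

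A smaller group of calls depended less on single arrays. Leaving out each of the 6 arrays in turn, 60 lower and 18 higher genes were called in 5 of the 6 fits, all but the one without F191G replicate A. Those lower included Klhl24, Kdm7a, Pdcd4, Ddit4, Trp53inp1, Tcp11l2, Sesn3, Sox4, Fzd2, Mmp11, Irs1, Hbp1 (-1.42), a repressor of cell-cycle genes, and Smarca2 (-0.80), the ATPase of a chromatin remodelling complex. Those higher included Ebna1bp2, Nbn, Higd1a, the kinetochore gene Cenpw (0.98), Cebpa (0.38), the corepressor gene Brms1 (0.49) and Polr2d (1.03), a subunit of RNA polymerase II. Polr2d read 8.80, 9.01 and 8.95 in F191G, 7.65, 8.11 and 7.91 in WT and 8.80, 8.74 and 8.80 in VEC. WT lay below both other groups, and the difference had an SE of 0.13 (adjusted p = 0.0173). Hbp1, Smarca2, Cenpw, Cebpa, Brms1 and Polr2d were named after their values were seen.

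Over all 15 arrays, the genes whose levels tracked Ogn most closely were Angptl7 (Pearson r 0.995), Glrb (0.977), Hp (0.976), Phyhd1 (0.971) and Acsf2 (0.970). Those nearest to Cenpk were Ssb (0.996), Kpna3 (0.994), Diaph3 (0.993), Ccne2 (0.992) and Ddias (0.991). These correlations describe arrays that share batch and scaling, and WT replicate A lay at an extreme of both sets. Of these genes, Phyhd1 (-1.37) and Acsf2 (-1.15) were called lower, Ssb (0.48), Diaph3 (0.95) and Ddias (1.02) higher, and Kpna3 read 0.36 (adjusted p = 0.0565).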

How the data were processed

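The deposited values are log2 expression levels of 23811 probe sets on 15 arrays, and per the submitters' processing notes RMA and limma were used, versions not stated. A further normalization to Twist1 expression is named in the design text without its form. The platform annotation gave 1 symbol to 20852 probe sets, several to 1440 and listed none for 1519. The probe set with the highest mean was kept for each of 19297 genes, with no filter on dim genes.

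The model, in limma 3.58.1 (R 4.3.3), held group and labelled batch over all 15 arrays (9 residual and 3.93 prior degrees of freedom). The script was tested on simulated data. The number of arrays limits the precision.

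The comparison and its 39 gene lists were chosen with earlier results of these data known. Genes named are the 14 largest called rises and falls, up to 4 members per list with the smallest p, 14 set genes such as Twist1 and Cdh1, and the 5 most correlated with Ogn and Cenpk. Members of the growth-restraint, replication, Fanconi, ribosome, stress, lysosome, NF-kB, antioxidant and plasma protein lists beyond those 4 were named after their values were seen. Promoters matched 15161 of the genes by symbol, and only the first listed window of each gene was searched. Alternatives changed the batch term, replicate block, arrays fitted, scaling, filter, probe sets and variance model. Leaving out both WT A and F191G A, and each array of the other groups, was added after seeing the data. Figures were drawn with matplotlib 3.10.9.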

Additional observations from a re-analysis of the deposited data

How the results depend on the processing

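Estimates were the same with and without a batch term, because the deposited values already carry the batch adjustment, but the counts of called genes moved. Without the term 2908 genes were called (1436 higher, 1472 lower), a fit that does not count the degree of freedom spent on batch. With the replicate block the counts were 251 (26 higher, 225 lower) with batch and 927 (365 higher, 562 lower) without it. Deviations of same-letter F191G and WT arrays from their group means correlated at -0.702, -0.396 and -0.297. The values were already centred by batch, which can remove an effect shared by arrays of the same batch. These correlations therefore cannot show whether the letters pair the arrays. With the Twist1 value as a covariate 467 were called (164 higher, 303 lower). Fits of only the 6 F191G and WT arrays and of only the 9 with VEC called 0, with 3194 and 4393 genes at an unadjusted p under 0.05. Median centring gave 1141 higher and 460 lower, and leaving out the dimmest of 3 equal parts of genes gave 1012 higher and 1006 lower. Batch A alone gave 0 and batch B alone 14 (3 higher, 11 lower). Leaving out single arrays of the 5 groups gave 0 to 2952 called genes, 0 to 1529 higher and 0 to 1423 lower, and leaving out both WT A and F191G A gave 6 (2 higher, 4 lower). Quantile normalization again, all probe sets, the mean of probe sets, the variance trend and array weights gave 1050 to 1337 called genes. Array weights gave WT replicate A 0.237. Some uncalled genes changed sign. Myc read -0.064 (batch B alone), -0.072 (without both WT A and F191G A arrays) and -0.10 to 0.24 with single arrays left out. Folh1 read 0.030 (replicate block with batch), 0.056 (median centring), 0.15 (batch A alone) and -0.10 to 0.061 with single arrays left out. Twist1 read 0.0045 (only the 9 arrays of F191G, WT and VEC), 0.0071 (quantile normalization again), 0.031 (median centring), 0.060 (batch B alone), 0.031 (without both WT A and F191G A arrays) and -0.082 to 0.045 with single arrays left out. Hoxa9 read -0.053 (batch B alone). Cdh2 read 0.017 (batch A alone). Vim read -0.084 (array weights), -0.13 (batch B alone), -0.16 (without both WT A and F191G A arrays) and -0.072 to 0.14 with single arrays left out. Fn1 read -0.019 (quantile normalization again), -0.0095 (array weights), -0.046 (batch B alone), -0.033 (without both WT A and F191G A arrays) and -0.022 to 0.035 with single arrays left out. Snai2 read 0.079 (batch B alone), 0.017 (without both WT A and F191G A arrays) and -0.15 to 0.032 with single arrays left out. Zeb2 read 0.050 (median centring), 0.024 (batch A alone) and -0.043 to 0.0028 with single arrays left out. Aspn read 0.018 (batch B alone). Ecm2 read 0.010 (batch B alone). The causes were not tested.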
